A study of Homo sapiens with 6 samples.

Results

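The SLC25 family consists mainly of carriers of the mitochondrial inner membrane. Its members were followed in 6 bulk RNA-seq libraries of irradiated HK-2 cells, which are epithelial cells of the human proximal tubule made immortal in culture. Members were the gene names that begin with SLC25A, without antisense genes, and listed rows with the same name were summed. This gave 48 members of 34644 gene names. Of the 54 names with this beginning, 6 were antisense genes and were left out, and 0 rows were pseudogenes. The name rule leaves out related carriers with other names, UCP1, UCP2, UCP3, MTCH1 and MTCH2. Sums and shares of the family below are those of the 48 members only. The members lie on 19 chromosomes, counting X once and Y not at all, and 5 of them lie on X.

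HK-2 cells carried a lentivirus, either a negative control (IR+NC-LV, n = 3) or one for overexpression of PRDM16, a zinc finger transcriptional regulator (IR+PR-LV, n = 3). Per the methods, transduced cells were selected with puromycin and showed GFP, so each group was a selected population and not a single clone. Both groups received 8 Gy of X-rays once and were collected 7 days later. The series holds no library without irradiation, so every value below is from irradiated cells. The libraries are labelled cell1 to cell3 in each group and no source used here says that they were separate cultures, so p-values measure the spread between these samples, which may be technical.

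Total counts ranged from 13407074 to 28540041 per library. PRDM16 had 2, 0 and 1 counts in the IR+NC-LV libraries, against 14, 10 and 8 counts in the IR+PR-LV libraries. The group means were 0.0637 ± 0.0600 and 0.542 ± 0.255 CPM (counts scaled to library size, SD, n = 3 each), with p = 0.1 in a two-sided exact permutation test, the smallest p that 3 against 3 libraries allow. Of 16 proximal tubule markers, PAX8, CDH6, KRT8, KRT18 and GGT1 were well above 1 CPM, while 8 were below 1 CPM in every library, among them LRP2, SLC34A1, SLC22A6, SLC22A8 and HNF4A. Of 12 markers of other kidney cells, 9 were below 1 CPM in every library, and their summed level was 94.5 to 110 CPM in IR+NC-LV, against 85.5 to 93.8 CPM in IR+PR-LV. Most of this sum was CD68, which had a log2 fold change of -0.22 (edgeR adjusted p = 0.399), and the podocyte gene NPHS1 had 1.73, 1.71 and 1.94 CPM against 0.595, 0.751 and 0.598 CPM (-1.42, edgeR adjusted p = 0.0574). Their part in the results below was not tested.

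Carriers of this family share a fold of repeated pairs of membrane helices and exchange or import metabolites that cannot cross the inner membrane on their own. ADP/ATP carriers export newly made ATP in exchange for ADP, the phosphate carrier supplies phosphate for ATP synthesis, and others move citrate, malate, amino acids, nucleotides, coenzymes, iron or glutathione. ATP-Mg/Pi carriers instead change the total amount of adenine nucleotide in the matrix, and SLC25A23, SLC25A24 and SLC25A25 do so under control of calcium. Proximal tubule cells in the kidney depend strongly on mitochondrial ATP for reabsorption.

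SLC25A24 was the member whose difference between the groups passed the test, and SLC25A25 had the second-lowest p of the members. Sequence upstream of their start sites is shown because the fitted log2 fold changes of these related carriers had opposite signs, although that of SLC25A25 did not pass the threshold. Each stretch is the 250 bases before a RefSeq transcription start (GRCh38.p14). Capitals mark matches to CCGGAAG, the core of sites for GABP, to TGACGTCA, the cyclic AMP response element (CRE), or to CCAAT, the CCAAT box, on either strand. SLC25A24 upstream lies at chr1:108200344-108200593 on the minus strand. SLC25A25 upstream 1 lies at chr9:128067982-128068231 and SLC25A25 upstream 3 at chr9:128098257-128098506, both on the plus strand.

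SLC25A24 upstream: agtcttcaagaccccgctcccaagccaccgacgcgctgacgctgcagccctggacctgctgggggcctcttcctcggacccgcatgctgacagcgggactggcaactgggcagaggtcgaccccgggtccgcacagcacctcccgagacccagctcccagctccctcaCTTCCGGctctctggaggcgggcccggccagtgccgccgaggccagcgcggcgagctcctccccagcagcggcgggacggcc

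SLC25A25 upstream 1: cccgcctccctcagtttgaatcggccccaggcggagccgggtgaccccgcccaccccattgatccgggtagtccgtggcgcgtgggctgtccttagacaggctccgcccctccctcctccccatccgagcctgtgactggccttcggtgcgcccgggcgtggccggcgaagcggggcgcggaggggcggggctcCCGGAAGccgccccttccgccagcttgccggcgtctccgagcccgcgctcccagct

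SLC25A25 upstream 3: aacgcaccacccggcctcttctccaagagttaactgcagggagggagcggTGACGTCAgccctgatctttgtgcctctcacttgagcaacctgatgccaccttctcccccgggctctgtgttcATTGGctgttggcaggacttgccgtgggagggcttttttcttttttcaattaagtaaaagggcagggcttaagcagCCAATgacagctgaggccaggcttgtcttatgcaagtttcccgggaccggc

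RefSeq lists 2 starts with a window for SLC25A24 and 3 for SLC25A25, and the windows printed are that of the start farther upstream for SLC25A24 and the first and the last along the chromosome for SLC25A25. In the printed window of SLC25A24 a GABP match lay on the minus strand with its first base at position -82 from the start. The first SLC25A25 window held a GABP match on the plus strand at -56. The last held a CRE match at -200, which reads the same on both strands, and CCAAT matches at -127 on the minus strand and -51 on the plus strand. The windows not printed held 0 matches for SLC25A24, and for SLC25A25 CCAAT matches on the minus strand at -110 and -56. A match is only a run of letters, and the deposited counts do not separate reads by start site.

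RefSeq windows of 300 bases, with 250 bases before and 50 from the start, were given for 40 of the 48 members, in 51 windows. They were rich in G and C, with a median of 66% against 58.7% over all 35116 windows, and held a median of 27 CpG dinucleotides against 14. GABP matches (CCGGAAG) were present in 11 of the 51 windows (21.57%), against 10.26% of all windows. CCAAT was present in 23 windows (45.1% against 34.61%), and the E-box CACGTG in 9 (17.65% against 7.256%). The CRE letters TGACGTCA stood in 3 windows (5.882% against 1.848%), those of SLC25A25, SLC25A33 and SLC25A36. AAGATGGCG, for YY1, stood in 1 window, that of SLC25A3 (1.961% against 1.748%), and the 10-base palindrome of NRF1 in 0 (against 1.239%). Both strands were searched, and 0 matches of different motifs overlapped. The letters for GABP, the E-box and the CRE each contain a CpG, and the shares were not adjusted for the higher CpG content of the member windows. SLC25A6 contributed windows with the same coordinates, each with CCAAT matches, and both were counted.

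Levels were compared between members only as TPM, in which counts are divided by exon length and all libraries have 1 common sum. Exon length is all listed exon bases of a gene, not the length of the transcripts made in these cells. Orders and shares between members rest on it. The family summed to 2331, 2381 and 2331 TPM in the IR+NC-LV libraries, against 2347, 2375 and 2315 TPM in the IR+PR-LV libraries. The group means of 2348 ± 29.1 and 2346 ± 30.1 TPM (SD, n = 3) overlapped. A mean over the 6 libraries above 100 TPM was found for 5 members, between 10 and 100 TPM for 26, between 1 and 10 TPM for 9, and at or below 1 TPM for 8. The 10 highest members held between 72.8% and 74.9% of the family's TPM in each library.

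**Figure D1:**
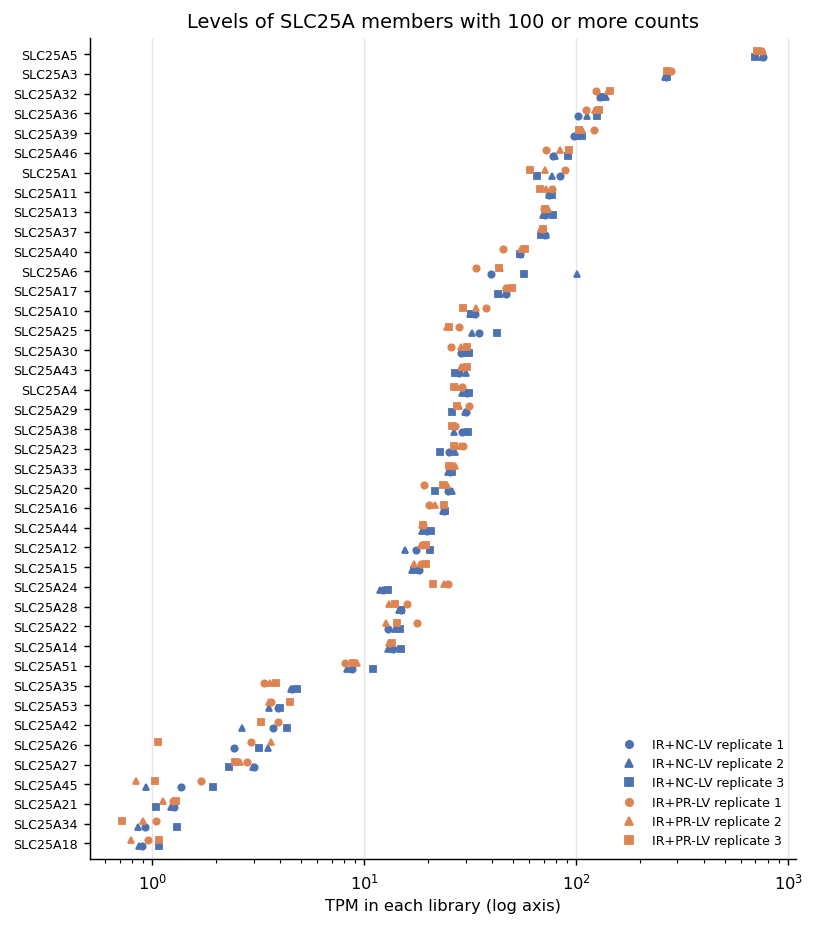
Level of the SLC25A members with at least 100 counts in all, except 1, in TPM on a log axis. Each symbol is a library, blue for IR+NC-LV and orange for IR+PR-LV. SLC25A5 and SLC25A3 lie highest, the blue and orange symbols of most members mix, those of SLC25A24 stand apart, and 1 blue symbol of SLC25A6 lies far to the right.

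SLC25A5, the ADP/ATP carrier known as ANT2, had the highest TPM of the members. It lay at 763, 749 and 697 TPM in IR+NC-LV, against 743, 762 and 713 TPM in IR+PR-LV. SLC25A3, the phosphate carrier, followed with 263, 261 and 268 TPM in IR+NC-LV, against 279.8, 277 and 267 TPM in IR+PR-LV. Both are needed for oxidative ATP supply, and the groups overlapped for both on this scale. The order of SLC25A5 and SLC25A3 rests on their listed exon bases, 1307 and 6343. Before division by length SLC25A3 had more counts, 60638 against 34313 for SLC25A5 over all libraries. SLC25A32, a carrier of folate and FAD, had 129, 138 and 130.4 TPM against 124, 141 and 144 TPM. SLC25A36, a pyrimidine nucleotide carrier, had 101, 113 and 125 TPM against 111, 123 and 128 TPM. SLC25A39, which brings glutathione into the matrix, had 97.9, 102 and 106 TPM against 122, 107 and 103 TPM. For these members, too, libraries of the groups mixed.

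The next 5 members lay close together. SLC25A46, an outer membrane protein that acts on mitochondrial shape, had 77.8, 79.1 and 91.2 TPM in IR+NC-LV, against 72.2, 83.4 and 92.5 TPM in IR+PR-LV. SLC25A1, the citrate carrier, had 83.3, 76.7 and 65.3 TPM against 88.0, 71.0 and 60.5 TPM. It is a member in which the spread within each group was wider than the distance between the groups. SLC25A11, the oxoglutarate/malate carrier, had 74.3, 74.1 and 76.5 TPM against 77.0, 71.9 and 67.1 TPM. SLC25A13, the aspartate/glutamate carrier citrin, had 71.1, 69.3 and 77.3 TPM against 70.3, 73.8 and 71.0 TPM. SLC25A37, the iron importer mitoferrin-1, had 71.3, 71.7 and 68.3 TPM against 69.1, 68.0 and 69.3 TPM. Libraries of both groups mixed for each of them. In the order of means over the 6 libraries, 738 ± 27.1, 270 ± 7.46, 134 ± 7.61, 117 ± 10.2 and 106 ± 8.13 TPM for the first 5 members, each neighbour differed by more than the SD of both. From SLC25A46 (82.7 ± 7.95 TPM) to SLC25A37 (69.6 ± 1.54 TPM) no neighbours did, so the order of neighbours there is not resolved. Among the first 5, too, the order did not hold in every library. In IR+PR-LV replicate 1, SLC25A39 (122 TPM) was above SLC25A36 (111 TPM).

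Adenine nucleotide and phosphate carriers held 49.6% of the family's TPM on average (48.5% to 50.8% over the libraries). Cofactor and pyrimidine nucleotide carriers held 15.5% (14.8% to 16.8%) and the iron and glutathione carriers 10.4%. Di- and tricarboxylate carriers with the relatives of the uncoupling proteins held 9.88%, carriers of amino acids, carnitine and methyl donors 9.67%, and 3 other members 4.92%. The summed level of each of these role groups overlapped between IR+NC-LV and IR+PR-LV.

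The members below the 10 highest are given as means over the 6 libraries. Of the adenine nucleotide carriers, SLC25A6 had 52.8 TPM with an SD of 24.4, SLC25A25 31.2, SLC25A4 28.9, SLC25A23 26.4 and SLC25A24 17.8 TPM. SLC25A6, SLC25A24 and SLC25A26 are each listed in more than 1 row. The treatment of reads with several matches is not given, so the levels of these members are uncertain. Of the cofactor carriers, SLC25A17 had 45.9, SLC25A33 25.7, SLC25A16 22.8, SLC25A51 9.04 and SLC25A42 3.51 TPM. They include carriers of pyrimidine nucleotides (SLC25A33), NAD (SLC25A51) and coenzyme A (SLC25A42). The dicarboxylate carrier SLC25A10 had 32.7 TPM, the uncoupling-protein relatives SLC25A30, SLC25A14 and SLC25A27 had 29.1, 13.5 and 2.68 TPM, and SLC25A35, SLC25A21 and SLC25A34 had 4.11, 1.20 and 0.958 TPM. Of the carriers of amino acids and related compounds, SLC25A29, for basic amino acids, had 28.7 TPM, SLC25A38, for glycine, 27.6 and SLC25A20, for acylcarnitines, 23.2 TPM. SLC25A44, for branched-chain amino acids, had 19.3 TPM, SLC25A12 18.4, SLC25A15, for ornithine, 17.8 and SLC25A22, for glutamate, 14.4 TPM. Members of this role at low level were SLC25A26 (2.79 TPM), SLC25A45 (1.30 TPM) and SLC25A18 (0.941 TPM). Carriers of most substrate classes were thus present above 10 TPM. SLC25A40 and SLC25A28, partners of SLC25A39 and SLC25A37 in glutathione and iron transport, had 53.2 and 14.6 TPM. SLC25A43 and SLC25A53, whose substrates are not settled, had 28.9 and 3.85 TPM.

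Members near 0 included several that are known from other tissues. SLC25A31, the ADP/ATP carrier of the testis, had 4 counts in all 6 libraries together, and SLC25A47, known from the liver, had 7. SLC25A41, an ATP-Mg/Pi carrier without the calcium-binding part, had 10 counts, SLC25A2, the second ornithine carrier, 5, SLC25A52, a NAD carrier, 1, and SLC25A48, a choline transporter, 0. These 6 members were not tested. A total of 3 counts, taken as the floor of a library, corresponds to 0.105 to 0.224 CPM, and such limits cover counting error only.

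IR+PR-LV was compared with IR+NC-LV to ask which carriers differ where PRDM16 is overexpressed in irradiated cells. With its listed rows summed, SLC25A24 was higher in IR+PR-LV, by 1.95-fold, and the other 41 tested members did not pass the threshold. The test was the quasi-likelihood test of edgeR on counts, with Benjamini-Hochberg adjustment over 15054 gene names and a threshold of 0.05 for the adjusted p. In all, 12 of the 15054 names were called (0.0797%), 4 higher (0.0266%) and 8 lower (0.0531%). Among the 42 members tested, 23 log2 fold changes were above 0 and 19 below, with a median of 0.03 against 0.00 over all names tested. That is 54.8% of the members above 0, against 51.1% of all names. In bulk RNA, fewer cells of a kind and less RNA per cell cannot be told apart.

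SLC25A24 lay at 17.3, 16.9 and 17.0 CPM in IR+NC-LV, against 35.5, 34.3 and 29.8 CPM in IR+PR-LV. The lowest IR+PR-LV library was well above the highest IR+NC-LV library. The log2 fold change was 0.96 (SE 0.09), with an edgeR p of 1.38e-06 and an adjusted p of 0.00919. At an adjusted p under 0.1, SLC25A24 and SLC25A25 were called, against 0.498% of all names. DESeq2 called these 2 members, against 1.02% of the names it gave an adjusted p, and edgeR without a filter on low counts called them and SLC25A6, against 1.29%. Leaving out each library in turn gave SLC25A24 log2 fold changes from 0.91 to 1.03 and adjusted p-values from 0.00972 to 0.0348. SLC25A24 carries ATP-Mg against phosphate and has calcium-binding domains on the side of the intermembrane space. On the scale of exon length it was a minor member, with 12.3, 11.8 and 12.9 TPM against 24.8, 23.8 and 21.2 TPM.

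The counts of SLC25A24 came from a pair of listed rows with the same exon length of 4589 bases. The row on chromosome 1 (chr1:108134043-108200343, minus strand) held 102, 136 and 81 counts in IR+NC-LV, against 91, 471 and 119 in IR+PR-LV, so 1 library was far above the others. The second row, on an alternate scaffold of the assembly, held 188, 221 and 155 counts against 505, 488 and 429. The share of the chromosome 1 row varied accordingly, from 34.3% to 38.1% in IR+NC-LV, against 15.3% to 49.1% in IR+PR-LV. Tested on its own by edgeR, the chromosome 1 row had a log2 fold change of 0.67 (SE 0.38, adjusted p = 0.575) and the scaffold row one of 1.10 (SE 0.18, adjusted p = 0.0755). Neither row passed alone, and the fit of unsummed rows called 0 members, against 0.0652% of all rows. With rows on assembled chromosomes only, an alternative added after the data were seen, 0 members were called, against 0.25% of all names, and SLC25A24 had 0.68 with an edgeR adjusted p of 0.530. The other 4 genes listed on that scaffold had at most 5 counts in a library.

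Several calls across the table were of names with several rows. Of 661 tested names with more than 1 row, 4 were called (0.605%), against 8 of 14393 names with 1 row (0.0556%). Their median SE was 0.285 against 0.105. Of the transcript of SLC25A24, 92.7% of stretches of 100 bases occurred in no annotated gene of another name. Copies under the same name were not compared, so this share does not tell whether reads can be placed between the listed rows of SLC25A24. The part of the listed copies in the difference of SLC25A24 was not tested.

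**Figure D2:**
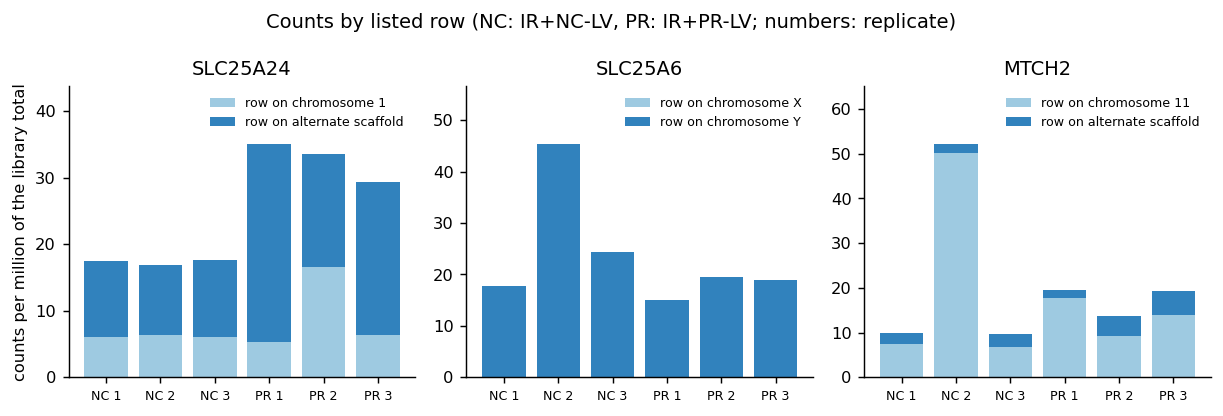
Counts of SLC25A24, SLC25A6 and MTCH2 by listed row, as CPM of the library total, for each IR+NC-LV (NC) and IR+PR-LV (PR) library. For SLC25A24 the stacked bars of the 3 PR libraries all exceed those of the NC libraries, while the chromosome 1 part stands out in PR 2. SLC25A6 and MTCH2 are highest in NC 2.

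SLC25A25, another calcium-regulated ATP-Mg/Pi carrier, lay at 68.7, 64.5 and 77.9 CPM in IR+NC-LV, against 55.4, 49.5 and 49.3 CPM in IR+PR-LV. The groups did not overlap, with every IR+PR-LV library below the IR+NC-LV libraries. The log2 fold change of -0.45 (SE 0.09) had an edgeR p of 0.000463 and an adjusted p of 0.0948 and did not pass the threshold. DESeq2 gave -0.44 with an adjusted p of 0.00246, and without a filter on low counts edgeR gave -0.44 with an adjusted p of 0.000292. With each library left out, edgeR values lay between -0.51 and -0.37 and adjusted p-values between 0.0818 and 0.434. SLC25A25 (chr9:128068200-128109245, plus strand) has 1 listed row and shares 0% of its exon bases with another listed gene. Of its transcript, 83.5% of stretches of 100 bases were found in no other annotated gene, the remainder in SLC25A25-AS1 and another noncoding gene. SLC25A25-AS1, its antisense neighbour, had 110, 167 and 101 counts in IR+NC-LV, against 186, 198 and 141 in IR+PR-LV (log2 fold change 0.24, SE 0.18, edgeR adjusted p = 0.690).

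SLC25A23, the third calcium-regulated carrier of this kind, lay at 32.2, 35.1 and 27.3 CPM in IR+NC-LV, against 38.1, 37.2 and 34.3 CPM in IR+PR-LV. Its groups overlapped, and the log2 fold change was 0.21 (SE 0.10, edgeR adjusted p = 0.503). As a share of the TPM of the 3 carriers together, SLC25A24 made up 17.0%, 16.7% and 16.6% in IR+NC-LV, against 30.4%, 31.1% and 29.04% in IR+PR-LV. The share of SLC25A25 was 49.4% ± 4.51 in IR+NC-LV, against 33.5% ± 1.23 in IR+PR-LV, and that of SLC25A23 33.8% ± 4.41 and 36.3% ± 0.608 (SD, n = 3). In the control libraries SLC25A25 was thus the leading member of the 3, and in the IR+PR-LV libraries the shares lay close together. Their sum was 73.6 ± 3.83 TPM and 77.1 ± 4.51 TPM, a difference within the spread of the libraries.

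SLC25A6, the ADP/ATP carrier ANT3, lay at 17.7, 45.5 and 23.5 CPM in IR+NC-LV, against 15.2, 20.0 and 19.1 CPM in IR+PR-LV. IR+NC-LV replicate 2 was far above the others and the groups overlapped. The log2 fold change was -0.68 (SE 0.29, edgeR adjusted p = 0.451), and -0.18 without that library. Without a filter on low counts the adjusted p was 0.000247 at -0.67. This gene lies in the pseudoautosomal region and is listed on both sex chromosomes, at the same coordinates, and 99.3% to 100% of its counts stood in the Y row. MTCH2, a carrier-fold protein of the outer membrane also listed in more than 1 row, showed the same library high, with 166, 1104 and 130 counts against 333, 390 and 361. It was chosen after its values were seen, and what these names share in that library was not tested.

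The major ADP/ATP carriers and the phosphate carrier had small differences. SLC25A5 lay at 307, 306 and 261 CPM in IR+NC-LV, against 302, 313 and 286 CPM in IR+PR-LV (log2 fold change 0.04, SE 0.08). SLC25A3 lay at 514, 519 and 489 CPM against 552, 553 and 521 CPM (0.10, SE 0.06, edgeR adjusted p = 0.607). On this scale its groups did not overlap, though the nearest libraries almost touched. SLC25A4, the ADP/ATP carrier ANT1 of heart and muscle, also had groups that did not overlap, at 41.2, 39.9 and 39.7 CPM against 39.5, 37.8 and 36.1 CPM (-0.09, SE 0.07, edgeR adjusted p = 0.701).

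**Figure D3:**
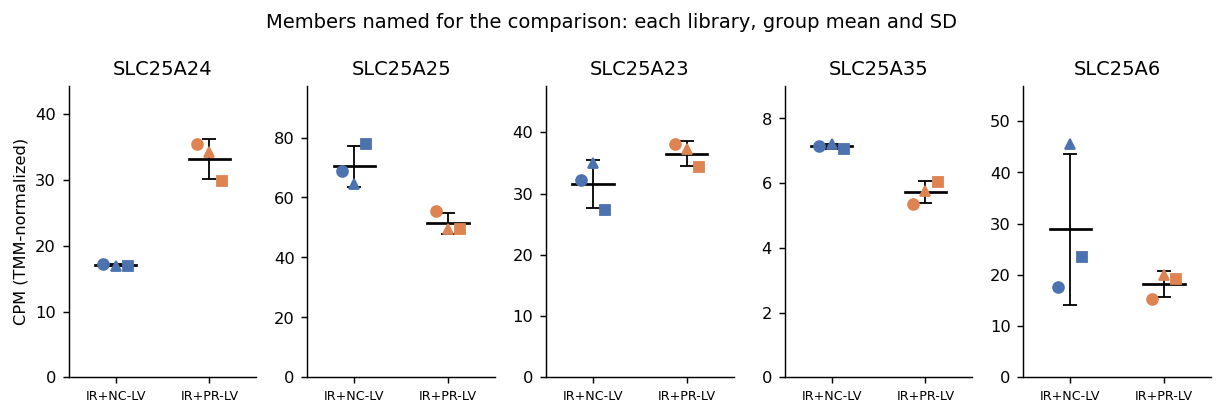
CPM of SLC25A24, SLC25A25, SLC25A23, SLC25A35 and SLC25A6 in each library, with group means (lines) and SD (bars, n = 3), each panel with its own axis from 0. IR+PR-LV libraries lie above all IR+NC-LV libraries for SLC25A24 and below them for SLC25A25 and SLC25A35. For SLC25A23 and SLC25A6 the groups overlap.

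Of the di- and tricarboxylate carriers and relatives of the uncoupling proteins, 2 had a log2 fold change above 0 and 7 below, with a median of -0.02. SLC25A35, a member without a settled substrate, lay at 7.15, 7.21 and 7.05 CPM in IR+NC-LV, against 5.36, 5.76 and 6.04 CPM in IR+PR-LV. All IR+PR-LV libraries were lower. The log2 fold change was -0.32 (SE 0.12), with an edgeR p of 0.0287 and an adjusted p of 0.412. Of its exon bases, 16.8% lie opposite RANGRF on the other strand, and whether reads were counted by strand is not given in the sources used here. SLC25A1 and SLC25A11 had log2 fold changes of -0.01 (SE 0.15) and -0.02 (SE 0.08), and each changed sign when 1 library was left out.

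Of the cofactor and pyrimidine nucleotide carriers, 6 were above 0 and 2 below, with a median log2 fold change of 0.08. SLC25A17, the peroxisomal carrier of coenzyme A and related cofactors, had groups that did not overlap, at 37.2, 35.3 and 31.7 CPM against 37.5, 37.7 and 39.6 CPM (0.14, SE 0.08, edgeR adjusted p = 0.598). SLC25A36 and SLC25A32 had log2 fold changes of 0.14 (SE 0.08) and 0.08 (SE 0.08). In GENCODE, 4.37% of the stretches of 100 bases of the SLC25A32 transcript occurred in SLC25A32 alone. In the deposited annotation, on which the counts rest, SLC25A32 shares 0% of its exon bases with another listed gene.

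Of the carriers of amino acids, carnitine and methyl donors, 6 were above 0 and 5 below, with a median log2 fold change of 0.02, and 0 passed. SLC25A13 had 0.03 (SE 0.06). The S-adenosylmethionine carrier SLC25A26 was the least precise member, with 115, 212 and 117 counts in IR+NC-LV, against 141, 292 and 55 in IR+PR-LV and an SE of 0.35. Its lowest library, IR+PR-LV replicate 3, was apart from the rest. Among the iron and glutathione carriers, SLC25A39 had 0.15 (SE 0.08) and SLC25A37 had 0.00 (SE 0.07), with a median of 0.00 over the 4. The 3 other members lay between 0.04 and 0.10, with SLC25A46 at 0.04 (SE 0.09).

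**Figure D4:**
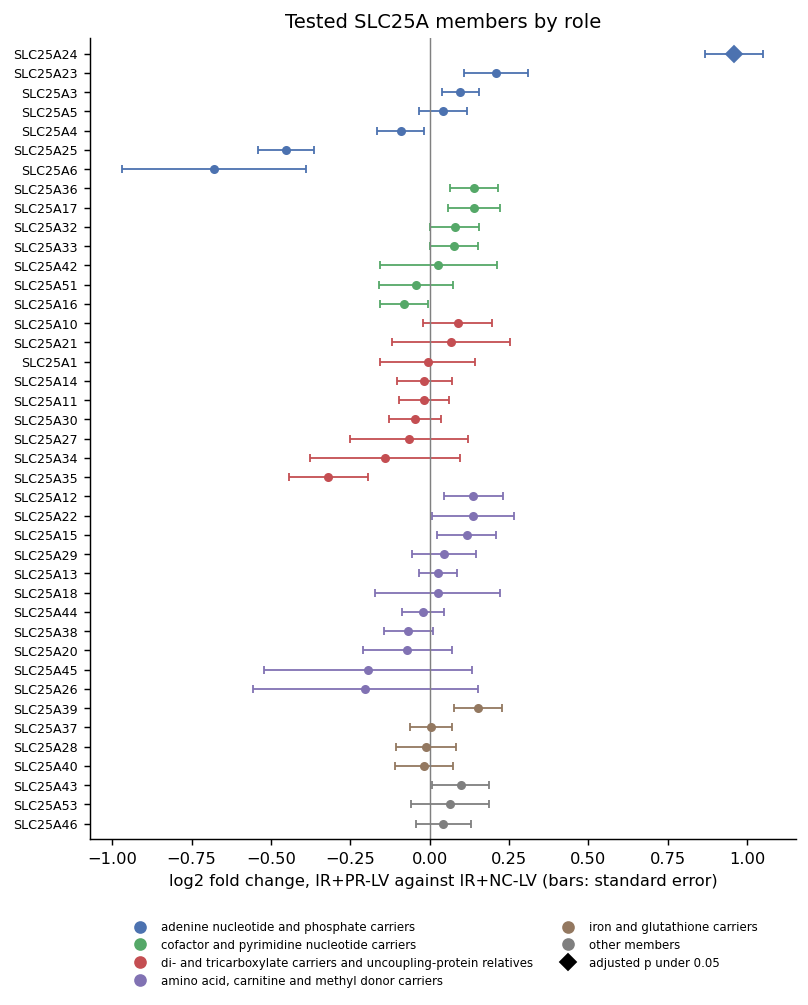
Log2 fold change of 41 of the 42 tested members in IR+PR-LV against IR+NC-LV, coloured by role, with standard errors as bars. SLC25A24 is the diamond at 0.96 and the one member with an adjusted p under 0.05. SLC25A6 and SLC25A25 lie lowest, and most members lie within 0.3 of 0.

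The sizes of most differences were small. Of the 42 tested members, 38 had a log2 fold change within 0.3 of 0 and 35 within 0.2, and the median SE was 0.09 against 0.11 over all names. Signs under the alternatives were followed only for the members chosen by rule for values in every library. Of these, SLC25A5, SLC25A46, SLC25A1, SLC25A11, SLC25A13 and SLC25A37, all within 0.2, changed sign under at least 1 alternative. Their direction is thus not resolved, and that of the members not followed in this way is not known to hold. An unadjusted edgeR p under 0.05 was reached by 4 of the 42 tested members, against 10.5% of all names. SLC25A24 was higher, against 4.41% of all names in this direction, and SLC25A25, SLC25A35 and SLC25A6 were lower, against 6.09% of all names. The CPM of the groups did not overlap for 17% of all names. This was so for 3 members in the higher direction (SLC25A24, SLC25A3 and SLC25A17), against 7.45% of all names, and for 3 in the lower direction (SLC25A25, SLC25A4 and SLC25A35), against 9.56%.

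Balance between related members was followed as the share of the first gene in the TPM of a pair. The level of such a share also rests on the listed exon lengths of both genes. Of 12 pairs, 2 had shares that did not overlap between the groups. Both contain SLC25A24 and restate its difference described above, so they are not a separate result. No such share was computed for pairs of other genes. Beside SLC25A25, SLC25A24 made up 25.4% ± 1.81 in IR+NC-LV, against 47.4% ± 1.71 in IR+PR-LV. Beside SLC25A23 it made up 33.3% ± 2.84 and 45.4% ± 0.913 (SD, n = 3). The other 10 pairs overlapped between the groups. SLC25A5 held 91.9% and 94.8% beside SLC25A6 in the group means, and 96.1% and 96.4% beside SLC25A4. SLC25A6 is listed in more than 1 row and the treatment of reads with several matches is not given, so its share is uncertain. Mitoferrin-1 (SLC25A37) held 82.6% and 82.8% beside mitoferrin-2 (SLC25A28), and citrin (SLC25A13) 80.3% and 79.1% beside aralar (SLC25A12). These shares differed by less between the groups than those of SLC25A24. SLC25A39 held 65.3% and 67.8% beside SLC25A40. SLC25A22 held 93.6% and 94.0% beside SLC25A18, the other glutamate carrier. SLC25A15 held 99.4% and 99.5% beside SLC25A2.

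Other genes of the same membranes were taken from lists by function. Of the 5 genes with the carrier fold that the name rule left out, UCP1, UCP2, UCP3, MTCH1 and MTCH2, 4 were tested. Of these, 2 were above 0 and 2 below, and 0 passed. Their means over the 6 libraries were 159 TPM for MTCH1, 102 for UCP2, 16.8 for MTCH2, 1.14 for UCP3 and 0.185 for UCP1. MTCH1 and UCP2 thus lay within the range of the 10 highest members. The route that brings carriers into the inner membrane is TOM70 with the TIM22 complex and the small TIM chaperones. It had 10 tested genes, 6 above 0 and 4 below, with a median log2 fold change of 0.04, and 0 passed. Groups did not overlap in the higher direction for 2 of them, against 7.45% of all names, and in the lower direction for 0, against 9.56%. These were TOMM70 (0.09, SE 0.06, edgeR adjusted p = 0.641) and TIMM29 (0.11, SE 0.10, edgeR adjusted p = 0.735), named after their values were seen. Of 22 other mitochondrial membrane transporters, 21 were tested, 11 above 0 and 10 below, with a median of 0.02, and 0 passed. Unadjusted edgeR p-values under 0.05 occurred for VDAC1, the main outer membrane channel, at 358, 363 and 349 CPM against 373, 396 and 406 CPM (0.13, SE 0.06, adjusted p = 0.467). They also occurred for MCUB, a subunit of the calcium uniporter, at 43.7, 49.1 and 41.2 CPM against 47.9, 56.4 and 55.9 CPM (0.26, SE 0.09, adjusted p = 0.391). The groups overlapped for MCUB. Of this list, 1 gene (VDAC1) had groups that did not overlap in the higher direction, against 7.45% of all names, and 2 genes in the lower direction, against 9.56%. The latter were MPC1, a subunit of the mitochondrial pyruvate carrier (-0.21, SE 0.13, edgeR adjusted p = 0.617), and SFXN3, a sideroflexin (-0.12, SE 0.07, edgeR adjusted p = 0.596), both named after their values were seen.

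Exon bases were shared with a gene on the opposite strand in 13 members, more than 10% of them in 8, and with a gene on the same strand in 2. The latter are SLC25A23 (2.07%) and its neighbour SLC25A41 (5.06%). SLC25A21 shared 46.9% with PAX9 and its own antisense gene, and SLC25A29 shared 30.3% with YY1. SLC25A5 shared 14.0% with SLC25A5-AS1, which had between 13 and 39 counts in a library. For these members reads of both strands cannot be told apart if strand was not used.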

How the data were processed

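Per the labels, RNA of irradiated HK-2 cells was sequenced in 6 libraries. The authors deposited, per gene or gene copy, counts without normalization, TPM (count per exon length, scaled to the same sum) and FPKM (per kilobase of exon and library size, used here only as an alternative for the order of levels). The submitters' processing notes name CASAVA, featureCounts 2.0.1, DESeq2 1.16.1 and the build hg38. The aligner and the treatment of reads with several matches are not given in the sources used here.

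The 38648 rows were summed by gene name over the whole table and fitted in edgeR 4.0.16 (R 4.3.3; filterByExpr at its default limits of 10 counts and 15 counts in all, TMM, glmQLFit and glmQLFTest, no covariates). CPM are TMM-normalized, and TMM factors were 0.981 to 1.04. SE is the log2 fold change over the root of F. DESeq2 1.42.0, other normalizations, filters and thresholds, unsummed rows, the replicate number as a block and each library left out were alternatives. The procedure was also run on simulated counts with the same spread for every gene and no split rows. That run does not bear on names with several rows or a wider spread. Values in every library were given for PRDM16, the 10 members with the highest TPM, members past the threshold or with an unadjusted p under 0.05, the 3 highest and 3 lowest log2 fold changes, and genes of the other lists with an unadjusted p under 0.05. 1 member that this rule names is not reported here. SLC25A4, SLC25A17 and SLC25A26 were added for their overlap or spread after their values were seen. The members and lists were chosen with earlier results of these data known. Promoter windows are from RefSeq, and stretches of 100 bases were compared between GENCODE transcripts of genes with different names.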

Additional observations from a re-analysis of the deposited data

How the results depend on the processing

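The count of 1 member called was 0 with rows not summed and 0 on assembled chromosomes only (added after seeing the data), 2 with DESeq2 (SLC25A24 and SLC25A25), 3 without a filter on low counts (these and SLC25A6), and 2 at an adjusted p under 0.1 (SLC25A24 and SLC25A25). It was 1 to 1 with each library left out, each time SLC25A24. Over all gene names the 12 calls became 151 with DESeq2, 354 without a filter, 37 on assembled chromosomes and 75 at an adjusted p under 0.1. With each library left out they ranged from 2 to 35, the lowest without IR+PR-LV replicate 3 and the highest when IR+NC-LV replicate 2 was out, and were 6 without IR+PR-LV replicate 1. The cause of these differences was not tested, apart from the threshold itself. The calls in the lists of related mitochondrial genes were 0 under every alternative run. With the deposited FPKM the 10 highest members included 10 of those by TPM. Within a library FPKM and TPM differ by the same factor for every gene, so this is no check of the order. The difference in PRDM16 was 0.333 to 0.571 CPM, and that in the share of SLC25A24 beside SLC25A25 21.0 to 22.8 percentage points, with each library left out.

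Small log2 fold changes turned sign among the members followed under the alternatives. With each library left out, SLC25A5 ranged from -0.0264 to 0.0792, SLC25A46 from -0.0331 to 0.131, SLC25A1 from -0.155 to 0.118, SLC25A11 from -0.0669 to 0.0375, SLC25A13 from -0.0030 to 0.0429 and SLC25A37 from -0.0500 to 0.0412. SLC25A37 was -0.0025 under upper-quartile normalization, and SLC25A1 was 0.0069 with DESeq2 and 0.00040 without a filter.

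Same-numbered libraries were not paired by the labels, and their deviations from the group means correlated by -0.02, 0.06 and 0.06. Replicate 1 of IR+NC-LV correlated best with replicate 2 of IR+PR-LV. With the replicate block 18 names and 1 member, SLC25A24, were called. The block changed no other call among the members. Precision was limited by 3 libraries a group and a median SE of 0.09 on the log2 scale, and members that missed the threshold are not shown to be equal between the groups.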
